A study of Mus musculus with 6 samples.

Results

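The genes described here are the interleukin-6 and oncostatin M family as measured in mouse colon: the ligands Il6, Osm, Lif and Il11, the receptor chains Osmr, Il6ra, Il6st, Lifr and Il11ra1, and the feedback inhibitor Socs3. They were taken by gene symbol, and every array probe whose RefSeq accession belonged to one of them was kept. This gave 10 genes with 17 probes, out of 23462 named genes and 56605 probes on the array. All 10 genes, through 16 of the 17 probes, were bright enough to be tested.

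The colons came from 6 male mice, 3 labelled as controls and 3 as knockouts of Islr, which encodes a secreted immunoglobulin superfamily protein with leucine-rich repeats made by stromal cells. Per the sample source, both groups had drunk 3.5% dextran sulfate sodium, which injures the colonic epithelium and causes colitis, for 5 days and had then recovered for 1 day. The treatment entry of the same labels says that nothing was given, and no animal without colitis was included here. The strain, the age, the form of the Islr allele and any Cre driver were not given in the sources used here. The design text of the series speaks of a flow separation of the samples ahead of RNA extraction without naming a cell fraction, so whether the values are those of whole colon or of part of its cells is unknown. RNA was hybridised to 1 single-colour Agilent array per mouse, so the single comparison is knockout against control at that time.

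Cytokines of this family all signal through gp130, the product of Il6st. Each ligand first engages a chain of its own: the interleukin-6 receptor (Il6ra) or the interleukin-11 receptor (Il11ra1) brings the ligand to a pair of gp130 chains, whereas leukaemia inhibitory factor (Lif) pairs gp130 with the chain encoded by Lifr, and oncostatin M (Osm) pairs it with that of Osmr, or in the mouse less readily with Lifr. The receptor complexes activate JAK kinases, which phosphorylate STAT3, and STAT3 in turn induces Socs3, which binds gp130 and JAK and shuts the signal down. In inflamed intestine the ligands come from myeloid cells and from activated stromal cells, and they act on epithelium, stroma and T cells.

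Levels are given as the processed signal of a spot, an intensity on a linear scale, and as its log2 value relative to the array's 75th percentile, so that 0 is the signal of a probe brighter than 75% of the spots. That percentile was 6353 to 7110.5 intensity units on the control arrays and 4910.5 to 5820.0 on the knockout arrays, so the knockout arrays were dimmer before scaling. On each array 69.4% to 75.4% of spots stood well above background. A log2 difference is knockout minus control, with the standard error of limma (SE). A gene is said to have passed the test where its Benjamini-Hochberg adjusted p from limma, taken over all 35351 tested probes, was at most 0.05. At that threshold 3.97% of tested probes and 3.82% of tested genes passed, with 2.47% of genes lower and 1.35% higher in the knockouts. The Islr probe itself read 18838.1, 16768.0 and 15157.3 in the controls and 1862.5, 3057.4 and 2327.4 in the knockouts, a log2 difference of -2.44 (SE 0.210, limma adjusted p = 0.0171). Without knockout replicate 3 the Islr difference was -2.39 with a limma adjusted p of 0.0580. Spots that the scanner software marked as outliers, 3.26% to 16% of an array, were set to missing. The 6 arrays lay on 1 slide with each genotype in a row of its own, so genotype and slide row cannot be told apart.

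As a group, the family sat low in the knockouts, but only 1 of its 10 genes, Osm, passed the test. For 9 of the 10 genes the difference was below 0, against 48.8% of all tested genes, and the median difference was -0.96 against 0.01 over all genes. All 3 knockout values lay below all 3 control values for 7 members, Il6, Osm, Il11, Osmr, Il6ra, Il6st and Lifr, which over all tested genes was so for 19.2%. The same 7 had an unadjusted limma p under 0.05, against 14.5% of tested genes with that p and the lower level in the knockouts. The members were chosen with earlier results of these data known, so these shares describe the group and test nothing. By the brightest probe of each gene, the ligands had the larger differences, with a median of -3.25 over 4 genes. The receptors had the smaller ones, with a median of -0.55 over 5 genes. In RNA from many cells at once, fewer cells that make a transcript and less of it per cell cannot be told apart.

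The promoters of 3 ligands are shown because they share a motif and belong to members with large differences. Each is the RefSeq sequence of the 250 bases before the annotated start, on mouse assembly GRCm38.p6, 5′ to 3′ on the gene's strand, with motif matches in capitals. Il6 lies on the plus strand (chr5:30012864-30013113), Il11 on the minus strand (chr7:4778142-4778391) and Lif on the plus strand (chr11:4257318-4257567).
Il6: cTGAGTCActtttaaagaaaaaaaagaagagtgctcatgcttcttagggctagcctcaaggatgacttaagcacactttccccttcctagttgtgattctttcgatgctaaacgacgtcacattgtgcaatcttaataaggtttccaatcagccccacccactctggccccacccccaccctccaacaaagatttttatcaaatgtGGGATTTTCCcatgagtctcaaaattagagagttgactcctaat
Il11: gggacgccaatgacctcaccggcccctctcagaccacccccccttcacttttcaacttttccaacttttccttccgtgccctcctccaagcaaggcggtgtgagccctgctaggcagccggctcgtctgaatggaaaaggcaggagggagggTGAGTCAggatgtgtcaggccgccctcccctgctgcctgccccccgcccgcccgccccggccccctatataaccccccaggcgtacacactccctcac
Lif: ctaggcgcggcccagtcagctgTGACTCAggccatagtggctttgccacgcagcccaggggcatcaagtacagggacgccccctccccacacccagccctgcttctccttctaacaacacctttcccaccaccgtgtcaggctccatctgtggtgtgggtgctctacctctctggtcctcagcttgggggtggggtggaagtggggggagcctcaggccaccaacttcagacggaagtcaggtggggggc

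The motifs were searched on both strands as TGANTCA for the AP-1 site, TTCNNNGAA for the STAT site and TGACGTCA for the cyclic AMP response element, and as the consensus of the NF-kB site with its middle pair of bases free. The AP-1 letters were found in the promoters of Il6 (249 to 243 bases before the start), Il11 (98 to 92 bases) and Lif (228 to 222 bases), and in 6.75% of 32851 promoter windows of the same length. An NF-kB match was found in the promoter of Il6 alone among those of the 9 members with a promoter, 44 to 35 bases before the start, and in 1.21% of all windows. The exact letters TGACGTCA, held by 1.55% of all windows, were in none of the 12 member windows. Sequences close to these letters were not searched for, and the Il6 window holds cgacgtca, which differs in its first letter. A second annotated start of Il11 had none of these matches. These matches are letters in a window and say nothing about what binds there.

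Il6, the founding cytokine of the family, had a processed signal of 4532.4, 13950.2 and 15293.4 in control replicates 1, 2 and 3 and of 91.4, 1375.5 and 947.9 in knockout replicates 1, 2 and 3. Every knockout value was below every control value, and knockout replicate 1 was not well above background. The log2 level was 0.57 ± 0.924 (SD, n = 3) in the controls and -3.48 ± 1.98 (SD, n = 3) in the knockouts, 16.5-fold lower. The difference of -4.05 (SE 0.987, 95% interval -6.41 to -1.69) was as low or lower in 0.115% of all tested genes, yet it missed the threshold (limma adjusted p = 0.0671). The spread among the knockouts was wide, and without knockout replicate 1 the difference was -2.91 (limma adjusted p = 0.0771). A second Il6 probe read 2173.9, 7301.6 and 8298.8 in the controls and 26.9, 563.1 and 314.4 in the knockouts. With the spot of knockout replicate 2 left out as an outlier, its difference was -5.47 (SE 1.07, limma adjusted p = 0.0534). Both probes thus ordered the animals into the same groups, with control replicate 1 the lowest control and knockout replicate 1 the lowest knockout. Of the 8 other ways of processing all 6 arrays under which Il6 could be tested, it passed with 4: normexp background correction (limma adjusted p = 0.0377), normexp with quantile normalization (0.0412), centring on the median (0.0469) and array weights (0.0103). Under these 4 more probes passed over the whole array too: 2558, 2773, 2249 and 9292 of 35351, against 1403 in the main fit.

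Osm encodes oncostatin M, a cytokine made mainly by myeloid cells. Its processed signal was 3354.1, 4650.7 and 4482.7 in the controls and 308.7, 798.8 and 964.4 in the knockouts. The controls lay close together and the groups were far apart. The log2 level was -0.69 ± 0.201 (SD, n = 3) in the controls and -3.15 ± 0.746 (SD, n = 3) in the knockouts, 5.48-fold lower, with a difference of -2.45 (SE 0.370, 95% interval -3.34 to -1.57, limma adjusted p = 0.0319). Osm was the only member whose brightest probe passed, and 0.833% of all tested genes were lower by as much. Its direction was the same in all 6 fits that left out 1 array, with differences from -2.74 to -2.03. The call was lost without control replicate 2 (limma adjusted p = 0.0914) or 3 (0.0880) or knockout replicate 3 (0.0580), and with no filter on dim probes (0.0505). Another Osm probe read 24.8 to 51.8 and was not well above background on any array, so it was not tested.

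Il11 encodes interleukin-11, a cytokine of activated fibroblasts. It read 28198.2, 41312.7 and 40965.7 in the controls and 399.4, 6798.6 and 6911.8 in the knockouts. The groups did not overlap, and knockout replicate 1 stood far below the other two knockouts. The spots of control replicate 1 and knockout replicate 2 were marked as outliers, which left 2 values per group: a log2 level of 2.59 ± 0.0766 (SD, n = 2) against -1.68 ± 2.74 (SD, n = 2). On these the level was 19.3-fold lower in the knockouts, with a difference of -4.27 (SE 1.29, 95% interval -7.65 to -0.90), which missed the threshold (limma adjusted p = 0.124). With the marked spots kept the difference was -3.49, and leaving out knockout replicate 1 as well gave -2.20, which passed (limma adjusted p = 0.0328).

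Lif encodes leukaemia inhibitory factor. It read 440.8, 4221.7 and 4116.4 in the controls and 385.9, 384.6 and 688.4 in the knockouts. Control replicate 1 lay among the knockouts, so the groups overlapped. The log2 level was -1.76 ± 1.81 (SD, n = 3) against -3.55 ± 0.438 (SD, n = 3), and the difference of -1.80 (SE 0.844, 95% interval -3.81 to 0.22) did not pass (limma adjusted p = 0.228). Control replicate 1 decided this value: without it the difference was -2.84 (SE 0.279) and passed with a limma adjusted p of 0.0178. Array weights, which weigh down arrays that stand apart, gave -2.51 (limma adjusted p = 0.0181). With these weights 9292 of all 35351 tested probes passed, against 1403 without them.

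**Figure D1:**
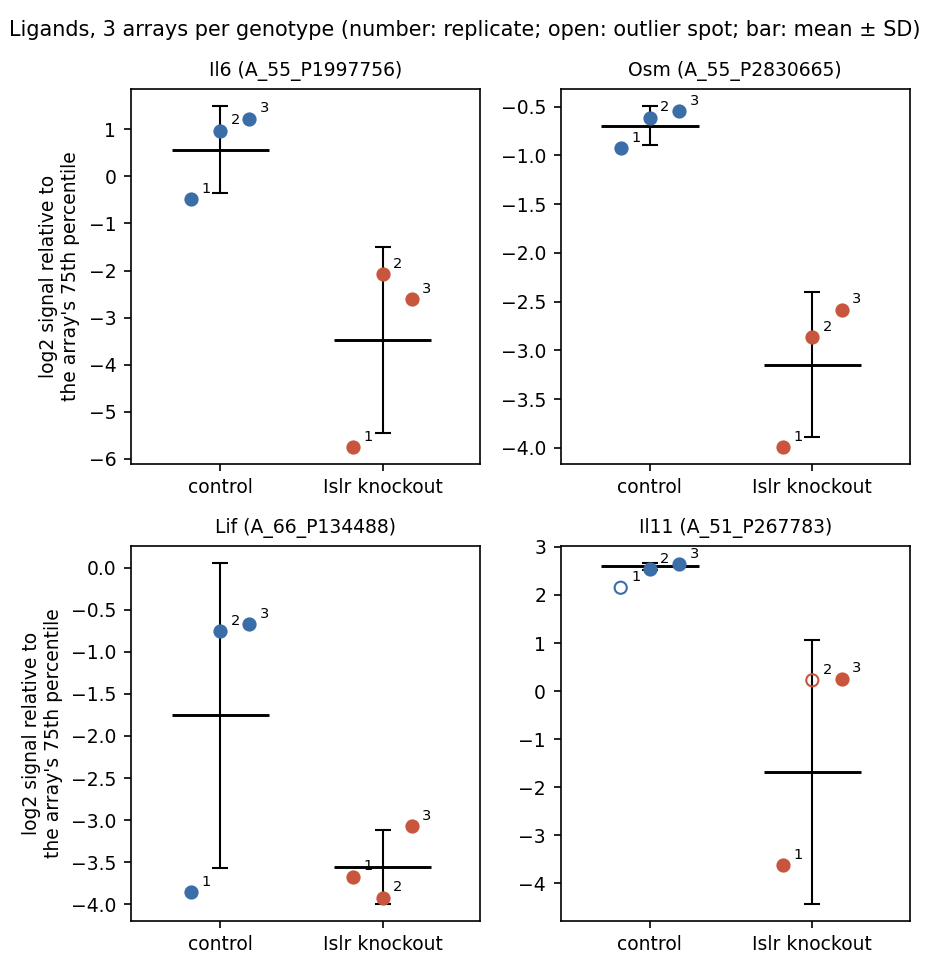
Scaled log2 signal (0 is an array's 75th percentile) of the brightest tested probe of each ligand, by genotype, with 1 point per mouse, open points for spots marked as outliers, and the mean ± SD of the remaining points. Il6, Osm and Il11 do not overlap between the genotypes, whereas control replicate 1 of Lif lies among the knockouts.

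By the brightest probe of each gene, the receptor chains showed smaller differences than the ligands, and none of the 5 passed limma's test. Still, 4 had an unadjusted limma p under 0.05 (28.2% of all tested genes did, in either direction). With dimmer probes counted the ranges overlapped, as 1 Osmr probe gave -2.24 against -1.80 for Lif. Osmr, which encodes a receptor chain for oncostatin M, read 25202.3, 29072.3 and 29198.5 in the controls and 4564.5, 13636.5 and 13138.8 in the knockouts. Knockout replicate 1 was again the lowest, and the groups did not overlap. The log2 level was 2.06 ± 0.0884 (SD, n = 3) against 0.77 ± 0.758 (SD, n = 3), 2.44-fold lower, with a difference of -1.29 (SE 0.366, 95% interval -2.16 to -0.42, limma adjusted p = 0.0879). Without knockout replicate 1 the difference was -0.85 (limma adjusted p = 0.0694), which is over 1.5 times smaller. A dimmer Osmr probe read 546.7, 937.5 and 693.1 against 25.4, 256.7 and 288.3, with knockout replicate 1 not above background, and gave -2.24 (SE 0.844, limma adjusted p = 0.151).

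Il6st encodes gp130, the chain that all these ligands share. Its brightest probe read 28434.5, 33821.3 and 31495.4 in the controls and 12036.3, 20334.8 and 18559.2 in the knockouts. The log2 level was 2.23 ± 0.0564 (SD, n = 3) against 1.59 ± 0.267 (SD, n = 3), a difference of -0.63 (SE 0.18, 95% interval -1.06 to -0.20, limma adjusted p = 0.0884). The groups did not overlap on either Il6st probe. A dimmer probe read 1243.2, 1669.0 and 1263.3 against 328.3, 601.3 and 487.6 and did pass, at 2.48-fold lower in the knockouts (difference -1.31, SE 0.205, limma adjusted p = 0.0339). That call was lost in 4 of 6 fits that left out 1 array: control replicate 2 (limma adjusted p = 0.104) or 3 (0.0868), or knockout replicate 1 (0.0631) or 3 (0.0905). It was lost with no filter on dim probes too (limma adjusted p = 0.0509).

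Lifr encodes the chain that binds leukaemia inhibitory factor, and it had 3 tested probes. The brightest read 14389.3, 13305.6 and 12304.1 in the controls, the first of these marked as an outlier, and 5434.8, 9225.4 and 6861.6 in the knockouts. Its log2 level was 0.91 ± 0.00535 (SD, n = 2) against 0.35 ± 0.274 (SD, n = 3), a difference of -0.55 (SE 0.218, 95% interval -1.10 to -0.01) that did not pass (limma adjusted p = 0.179). All 3 Lifr probes separated the genotypes, and both dimmer ones passed. The second probe read 2871.2, 2980.3 and 2595.0 against 487.8, 1061.4 and 791.4, 3.12-fold lower (difference -1.64, SE 0.240, limma adjusted p = 0.0306). The third read 528.1, 544.3 and 525.4 against 201.9, 237.2 and 271.6, 1.87-fold lower (difference -0.90, SE 0.144, limma adjusted p = 0.0351). The call of the second probe was lost without control replicate 2 (limma adjusted p = 0.0910) or 3 (0.0836), or knockout replicate 1 (0.0506) or 3 (0.0830). That of the third was lost without any array but control replicate 1, with limma adjusted p from 0.0631 to 0.111, under normexp background correction (0.0560) and with no filter on dim probes (0.0505).

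Il6ra encodes the chain specific for interleukin-6. It read 17641.8, 23211.3 and 16992.3 in the controls and 9896.6, 13835.2 and 12355.5 in the knockouts. The log2 level was 1.52 ± 0.169 (SD, n = 3) against 1.12 ± 0.121 (SD, n = 3), so that the groups did not overlap but lay close. The difference was -0.40 (SE 0.161, 95% interval -0.79 to -0.01, limma adjusted p = 0.174), and a dimmer probe gave -0.22 (SE 0.136, limma adjusted p = 0.353).

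Il11ra1, the chain specific for interleukin-11, was the member whose difference lay above 0. It read 24525.7, 26253.6 and 24223.7 in the controls and 20342.2, 23276.7 and 23662.7 in the knockouts, which after scaling made 1.91 ± 0.0360 (SD, n = 3) against 2.03 ± 0.0260 (SD, n = 3). The scaled values of the knockouts were all above those of the controls, as for 19.0% of all tested genes. The difference of 0.12 (SE 0.133, 95% interval -0.20 to 0.44, limma adjusted p = 0.597) did not pass, and under quantile normalization it was -0.04. So the gene of one ligand, Il11, and that of its own receptor chain differed in what was seen, Il11 far lower in the knockouts and Il11ra1 near its control level, although the difference between these genes was not tested. The near-identical gene Il11ra2 was not found by name on the array, and how far its transcripts bind the Il11ra1 probe is unknown.

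**Figure D2:**
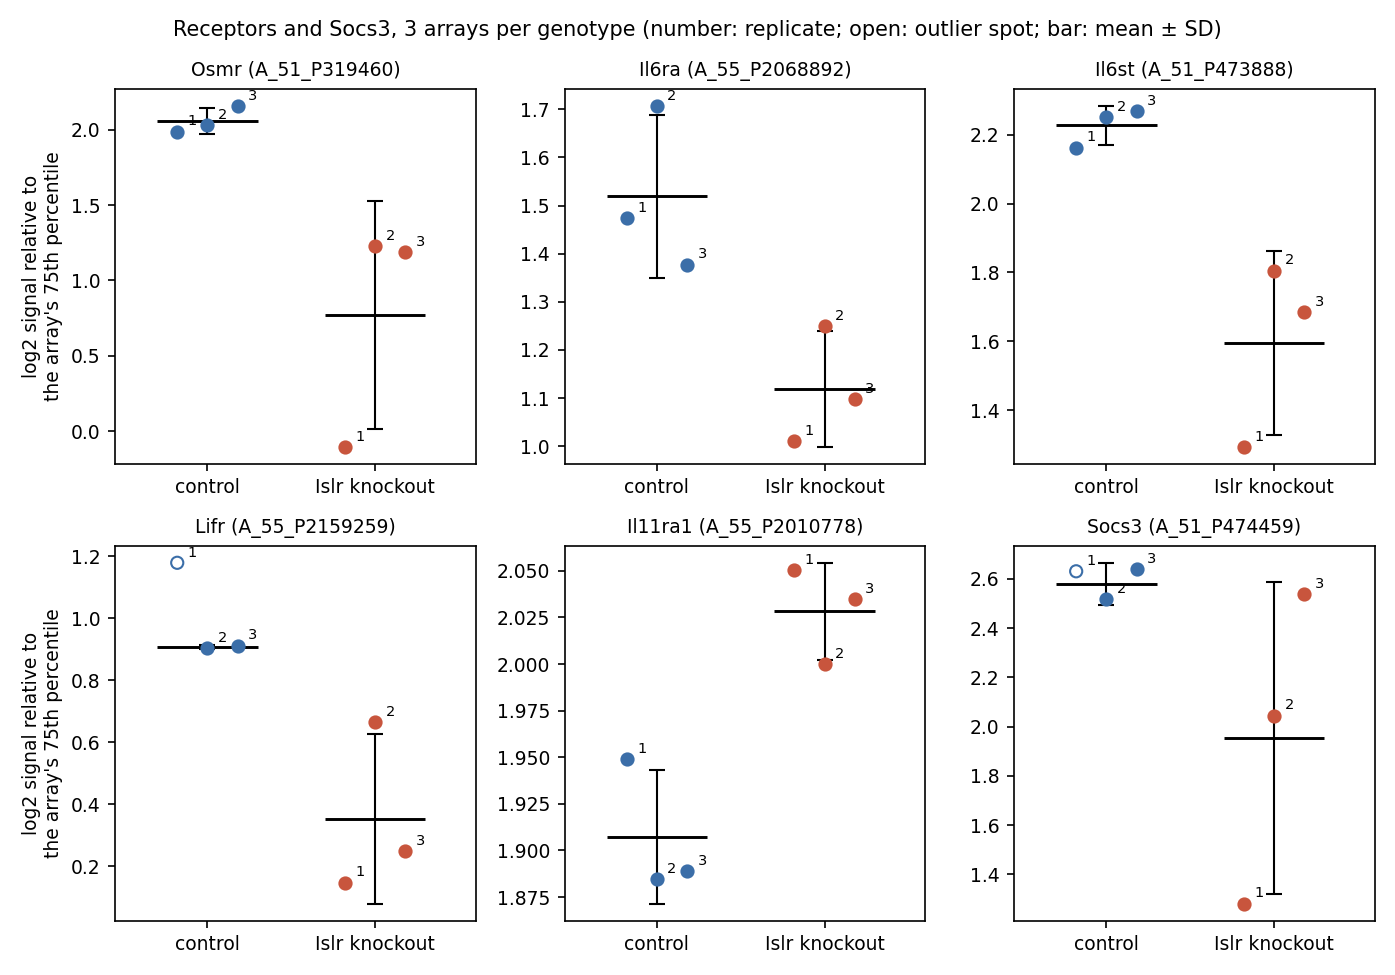
Scaled log2 signal (0 is an array's 75th percentile) of the brightest tested probe of each receptor chain and of Socs3, by genotype, with 1 point per mouse, open points for outlier spots, and mean ± SD; each panel has its own axis range. Knockout replicate 1 is the lowest mouse in every panel but that of Il11ra1, where the knockouts lie above the controls by 0.12.

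Socs3, the STAT3-induced inhibitor of gp130 signalling, was bright in both genotypes. It read 39354.8, 40728.3 and 40778.9 in the controls and 11929.7, 24003.7 and 33509.6 in the knockouts. Knockout replicate 3 reached a log2 level of 2.54, within the control range of 2.52 to 2.64, whereas knockout replicate 1 was at 1.28. With the outlier spot of control replicate 1 left out, the level was 2.58 ± 0.0864 (SD, n = 2) against 1.95 ± 0.633 (SD, n = 3). The difference of -0.63 (SE 0.38, 95% interval -1.57 to 0.32) did not pass (limma adjusted p = 0.345), and without knockout replicate 1 it was -0.29 (limma adjusted p = 0.530). The interval holds both 0 and the size of the Osmr difference.

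The Socs3 promoter is shown because it was the only member promoter with the STAT letters, which 7.02% of all promoter windows held. It is the RefSeq sequence of the 250 bases before the start on the minus strand (chr11:117969367-117969616, GRCm38.p6), with the match, 154 to 146 bases before the start, in capitals.
Socs3: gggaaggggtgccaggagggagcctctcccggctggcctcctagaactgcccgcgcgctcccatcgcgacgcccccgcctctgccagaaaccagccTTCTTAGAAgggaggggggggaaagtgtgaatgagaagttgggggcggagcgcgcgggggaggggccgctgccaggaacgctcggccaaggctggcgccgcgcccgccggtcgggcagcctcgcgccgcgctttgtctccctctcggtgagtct

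Among the 16 tested probes, 15 had differences below 0 and 4 passed, all with the lower level in the knockouts, against 2.42% of all tested probes. These 4 belong to Osm, Il6st and Lifr, so that 3 of the 10 genes had at least 1 probe that passed, against 3.2% of all tested genes and 4.31% of those with at least 2 tested probes. Where a gene had several probes, they had the same direction but not the same size, and for Il6, Osmr, Il6st and Lifr a dimmer probe gave the larger difference. For Il6ra the brighter probe did. Which part of the transcript each probe reads was not examined.

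**Figure D3:**
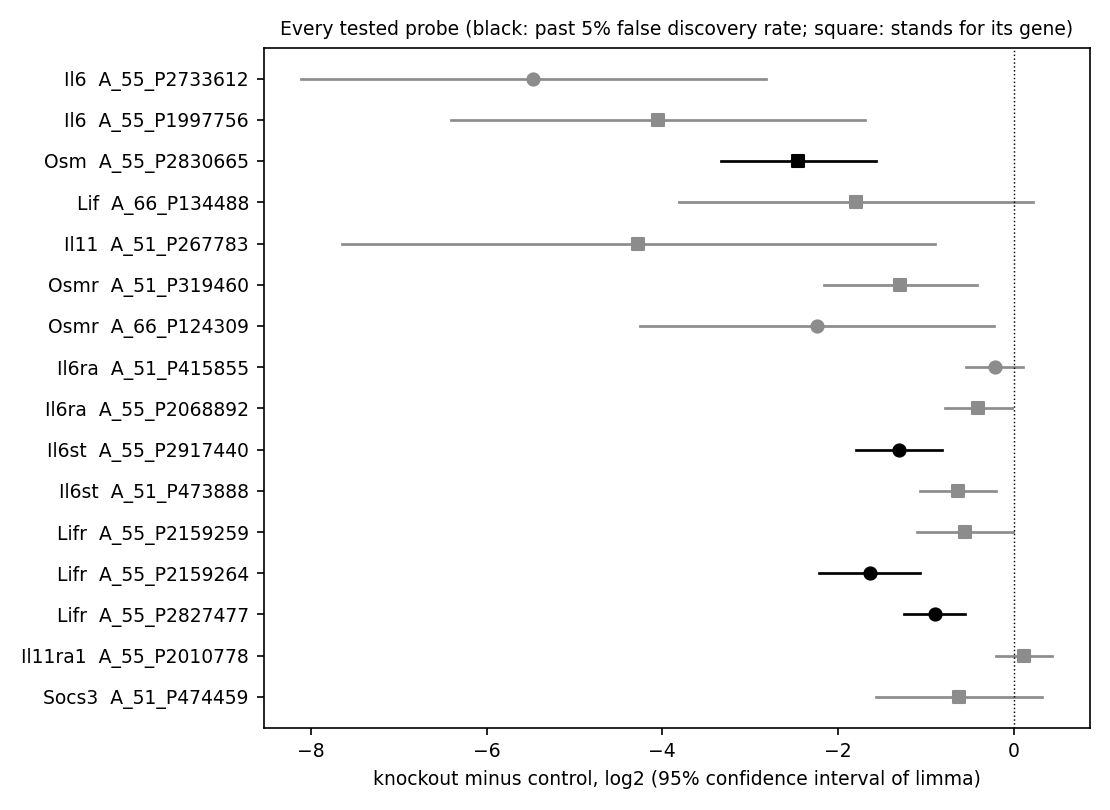
Knockout minus control log2 difference of each of the 16 tested probes of the family with its 95% confidence interval from limma; black symbols passed the 5% false discovery rate and squares mark the probe that stands for its gene. All symbols but that of Il11ra1 lie left of 0, and the intervals of Il6 and Il11 are the widest.

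Knockout replicate 1 had the lowest value of all 6 mice in 8 of the 9 members with a difference below 0, Lif being the other. Over all tested genes with a difference below 0 that mouse was lowest in 50.3%. Without it, and with outlier spots kept, the differences of Il6, Osm, Il11 and Osmr were -2.91, -2.03, -2.20 and -0.85, all still below 0. Those of Lif (-1.74), Il6ra (-0.35) and Lifr (-0.54) moved less. Osm and Il11 then passed, with a limma adjusted p of 0.0328 each. Without control replicate 1, Osm and Lif passed, and without knockout replicate 2 Osm did. Without control replicate 2 or 3 or knockout replicate 3 no member did.

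**Figure D4:**
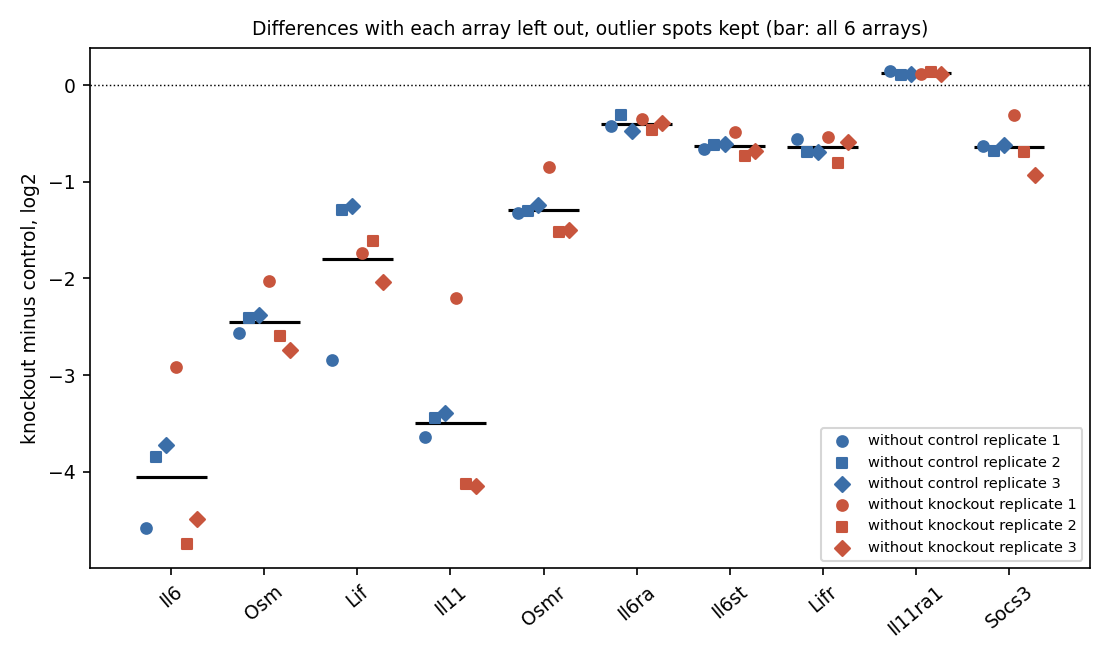
Knockout minus control log2 difference of each member when 1 array is left out, with outlier spots kept; bars give the difference over all 6 arrays. Removing knockout replicate 1 brings Il6 to -2.91 and Il11 to -2.20, removing control replicate 1 brings Lif to -2.84, and no member crosses 0.

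The rest of the pathway was followed through 6 lists with 94 genes, of which 83 were tested. Of these 4 passed, or 4.82%, against 3.82% of all tested genes, and all 4 were lower in the knockouts; the median difference was -0.21. Ligands of related receptors held 2 of the 4 among 13 tested genes, with a median of -0.75. An unadjusted limma p under 0.05 was found for 6 of the 13, 5 of them lower in the knockouts. Over all tested genes 28.2% had that p in either direction and 14.5% had it with the lower level in the knockouts. Csf3 encodes granulocyte colony-stimulating factor, which drives the production of neutrophils. Its log2 level was -0.19, -1.83 and -1.50 in the controls and not well above background in any knockout. Over all 3 controls it was at least 20.1-fold lower in the knockouts. With control replicate 1 left out as an outlier, the fitted difference was -5.45 (SE 0.432, limma adjusted p = 0.0169), and with that spot kept it was -5.94. The call was lost without knockout replicate 3 (limma adjusted p = 0.0535). Without control replicate 2 or 3 Csf3 could not be tested, because the outlier spot left 1 control value.

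The list of genes known to respond to STAT3 was mixed, with 15 of its 25 tested genes below 0 and 10 above, and a median of -0.25. An unadjusted limma p under 0.05 was found for 11 of the 25, 8 of them lower in the knockouts. Over all tested genes 28.2% had that p in either direction and 14.5% had it with the lower level in the knockouts. Both genes of this list that passed fell. Lcn2, which encodes the iron-binding antimicrobial protein lipocalin-2, stood at 2.73, 2.35 and 2.27 in the controls and 0.19, 1.09 and 0.60 in the knockouts, 3.54-fold lower (difference -1.82, SE 0.263, limma adjusted p = 0.0302). Il1rl1, which encodes the interleukin-33 receptor ST2, stood at -0.77, 0.53 and 0.56 against -4.02, -2.64 and -2.55, 9.05-fold lower (difference -3.18, SE 0.518, limma adjusted p = 0.0358). For both, the groups were far apart. The calls of both were lost without control replicate 2 (limma adjusted p = 0.0843 for Lcn2 and 0.0971 for Il1rl1) or 3 (0.0772 and 0.0964), or knockout replicate 1 (0.0567 and 0.0661) or 3 (0.0828 and 0.0794). With no filter on dim probes the call of Il1rl1 was lost (limma adjusted p = 0.0562).

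None of the genes for signalling, feedback, shedding or related receptors passed limma's test. At an unadjusted p under 0.05 they were 1 of 15 JAK-STAT signalling genes, 6 of 15 feedback inhibitors, 2 of 4 shedding genes and 3 of 11 receptors, against 28.2% of all tested genes. Among the JAK-STAT signalling genes, with a median of -0.05, the largest differences were those of Stat4 (-0.74, limma adjusted p = 0.241) and Stat2 (0.51, limma adjusted p = 0.150; 0.71 with the outlier spot of 1 knockout kept). Stat3, named after its value was seen, had a difference of -0.07 (SE 0.161, 95% interval -0.46 to 0.31, limma adjusted p = 0.809), so that a change of its transcript by over 1.5 times lay outside the interval. Of 15 feedback inhibitors besides Socs3, 9 were below 0 and 6 above, with a median of -0.17. Only 3 of those with an unadjusted limma p under 0.05 were lower in the knockouts, and the rest were higher. The largest differences were those of the phosphatase genes Ptprc (-1.56, limma adjusted p = 0.134) and Ptpn1 (-0.71, limma adjusted p = 0.0723). For Ptprc knockout replicate 2 was left out as an outlier, and with it kept the difference was -0.98. Of 4 genes for the shedding of cytokines and receptors from the cell surface, Rhbdf2 (-0.70, limma adjusted p = 0.0669) and Rhbdf1 (-0.65, limma adjusted p = 0.0591) had the largest. Of 11 tested receptor chains of related cytokines, the largest were Il31ra (-1.49, limma adjusted p = 0.184) and Il22ra2 (1.41, limma adjusted p = 0.341). The Il31ra value leaves out knockout replicate 2 as an outlier and rests on a probe above background in 1 of 3 knockouts; with that spot kept its difference was -0.08.

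Markers of the cell types that make or answer these cytokines also differed between the groups, and their part in the results above was not tested. Their summed level is the sum over a list's genes of the linear signal divided by that percentile of its array. Of 11 tested neutrophil markers 7 passed with the lower level in the knockouts and 1, Ltf, with the higher level. Over all tested genes 2.47% passed with the lower and 1.35% with the higher level. Of the 11 markers 8 were below 0 and 3 above, and the median was -1.93. The summed neutrophil level was 32.0 to 35.1 in the controls and 26.3 to 31.1 in the knockouts. In the knockouts Csf3r, Itgam and Ly6g were the brightest of the list, so they weigh most in that sum. Their differences lay above 0, at 0.17 for Csf3r, 0.27 for Itgam and 0.78 for Ly6g. Ly6g could not be tested, and its value has outlier spots kept, with every knockout above every control. Elane and Ngp were not above background on any array. Of 10 macrophage markers none passed. An unadjusted limma p under 0.05 was found for 5 (4 lower in the knockouts and 1 higher), against 28.2% of all tested genes. The macrophage median was -0.51, with sums of 33.1 to 42.5 against 29.1 to 33.0. Among 11 fibroblast markers, all below 0, Pdgfrb passed (-1.17, limma adjusted p = 0.0395), the median was -0.63, and the sums were 61.0 to 68.5 against 40.2 to 53.6. All 7 endothelial markers were below 0 without passing, 5 of them with an unadjusted limma p under 0.05. That p with the lower level in the knockouts was found for 14.5% of all tested genes. The endothelial sums were 11.6 to 13.4 against 3.58 to 8.73. Sums of neutrophil, macrophage, fibroblast and endothelial markers were lower in every knockout than in every control, as were Il6, Osm and Il11. Of all tested genes 19.2% had this order, but that is a share of single genes and no such share was taken for sums over lists. The macrophage sums of the groups all but met, and the neutrophil sums lay close.

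The lists for T cells (7 tested genes, median -0.28, sums 4.84 to 9.85 in controls and 4.67 to 8.45 in knockouts) and for B and plasma cells (7 genes, median -0.55, sums 18.4 to 29.1 and 12.9 to 20.9) overlapped between the groups. Of 3 tested mast cell markers Hdc passed (-2.40, limma adjusted p = 0.0441), whereas Mcpt2 (-0.36) and Tpsb2 (0.80) did not, the median was -0.36, and the mast cell sums were 2 to 2.70 against 1.5 to 2.09. The 7 tested markers of the enteric nervous system had a median of -0.65 and sums of 12.2 to 13.4 against 9.15 to 11.2, again without overlap. All 12 tested markers of colonic epithelium were above 0 without passing. Of these 4 had an unadjusted limma p under 0.05, against 28.2% of all tested genes in either direction. The epithelial median was 1.21, with sums of 27.8 to 88.0 in the controls and 100.5 to 132.5 in the knockouts. Control replicate 2 had the lowest sum. All 14 listed markers of colonic epithelium, the labelled tissue, were above background on some array. The 7 smooth muscle markers were all above 0 too, with a median of 0.36 and sums of 50.6 to 62.9 against 68.5 to 80.3.

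**Figure D5:**
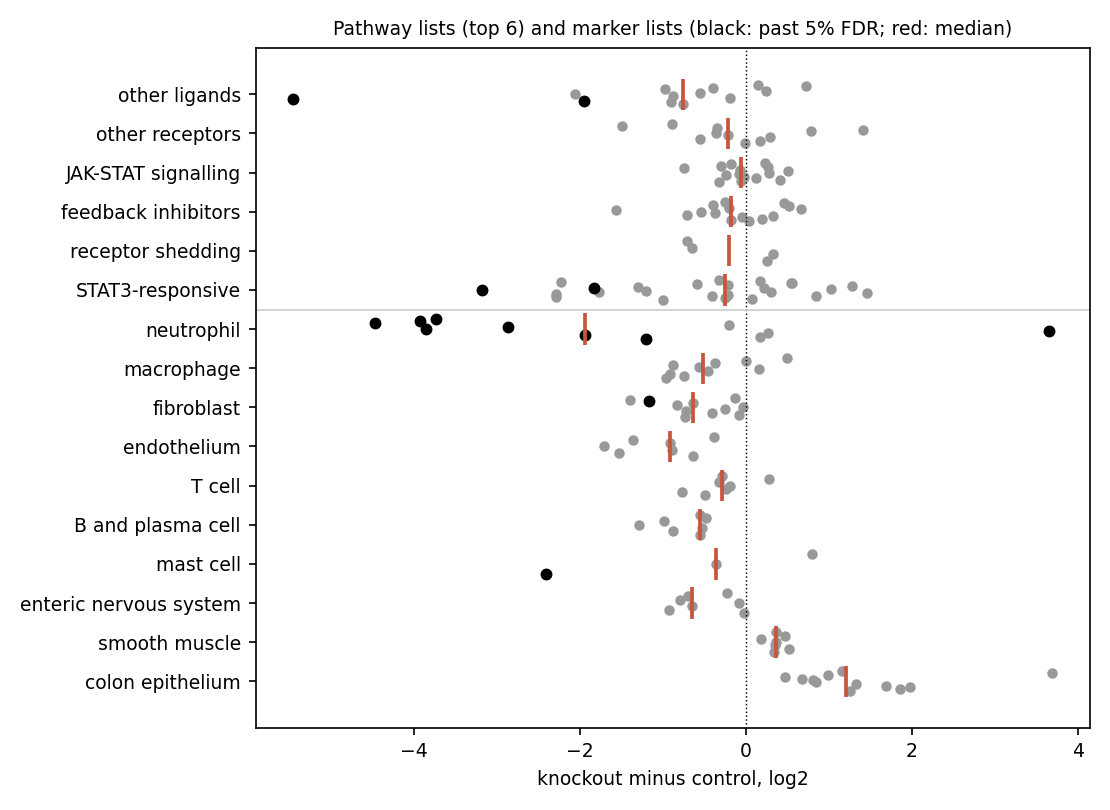
Knockout minus control log2 difference of every tested gene of the 6 pathway lists and 10 cell type marker lists; black points passed the 5% false discovery rate and red bars are medians. The calls lie with the other ligands, the STAT3-responsive genes and the neutrophil, fibroblast and mast cell markers, and the epithelial and smooth muscle markers all lie right of 0.

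The genes whose pattern over the 6 mice was most like that of Osm and Il6 were ranked by the Euclidean distance between centred log2 profiles, a description over 6 arrays that share a 2-group difference. Of 16450 genes the nearest to Osm were Ackr3 (distance 0.144), which encodes a scavenging receptor for chemokines, F2rl3 (0.309), which encodes a thrombin receptor, Bcl6b (0.441), Gm11228 (0.450) and Tnfsf11 (0.455), which encodes RANK ligand. The nearest to Il6 was Stc1 (1.09), followed by the family's own Il11 (1.28), the matrix metalloproteinase gene Mmp10 (1.39), Nppc (1.55) and Prnd (1.6). The distances from Il6 were larger than those from Osm, and its own values spread more widely.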

How the data were processed

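Colon RNA of 6 mice was measured on 1 single-colour Agilent array each (Feature Extraction 11.5.1.1, design 074809, per the file headers; the submitters' processing notes name version 10.7). The labels name the dye Cy3, whereas the deposited files hold the red channel alone, which was used. The authors deposited the processed signal, an intensity on a linear scale after detrending and background subtraction, per the file headers. These deposited intensities recur in the series' value table, which served as an alternative. Groups followed the labelled genotype; no label pairs the mice, and p-values measure the spread between these samples.

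The signal was converted to log2, the array's 75th percentile over 59305 non-control spots was subtracted, outlier spots were set to missing and spots of 1 probe were averaged. Probes were named by RefSeq accession through GRCm38.p6, used only for names because the files place probes on mm9; 33767 of 56605 probes were named. To be tested, a probe had to exceed background clearly on the 3 arrays of 1 genotype or both, with at least 2 usable values per group, which left 35351 probes and 16451 genes. The brightest tested probe stood for a gene. No spot was saturated.

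Genotypes were compared by limma (version 3.58.1, lmFit then eBayes; R 4.3.3) in a two-sided test, with Benjamini-Hochberg adjustment over all tested probes at a 5% false discovery rate, after the fit was tested on simulated data. The smallest two-sided p of an exact permutation test of 3 against 3 is 0.1, so none is given per gene. A fold for a gene not above background in 1 group is a lower bound against the higher of its own signal and the array's dimmest signal well above background. The number of arrays limits the precision.

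The 10 members and the gene lists were chosen with earlier results of these data known. Named genes are all members, every list gene that passed and, where none did, the 2 with the largest difference, marker genes beside a member, Islr, and the 5 genes nearest to Osm and to Il6. 1 gene that this rule names is not reported here. Promoters were matched by symbol to RefSeq for 9 of the 10 members, in 12 windows; Osm had no entry. Alternatives were normexp (offset 50) alone or with quantile normalization, quantile normalization, centring on the median, outlier spots kept, no filter on dim probes, only probes above background on all 6 arrays, array weights, the value table, the mean of all probes of a gene, and each array left out. A further pair, outlier spots kept with each array left out and any called probe counted, were chosen after seeing the data.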

Additional observations from a re-analysis of the deposited data

How the results depend on the processing

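The count of probes past the threshold, 1403, was 2558 with normexp, 2773 with normexp and quantile normalization, 2185 with quantile normalization, 2249 with centring on the median, 484 with no filter and 9292 with array weights; with 1 array left out it ran from 40 (without knockout replicate 3) to 2114 (without control replicate 1). At an unadjusted p under 0.05 it was 9481. The share of calls with the higher level in the knockouts was 39.1%, ran from 33.7% (no filter) to 51.1% (normexp) with all 6 arrays, and from 10% (without knockout replicate 3) to 55.1% (without control replicate 1) with 1 array left out. Of the members, 1 passed, against 2 with normexp, 3 with normexp and quantile normalization, 2 with centring on the median, 0 with no filter, 5 with array weights and 3 where any called probe counted; with 1 array left out, outlier spots missing or kept, it was 0 to 2. Of the other pathway genes 4 passed, against 8 with normexp, 13 with normexp and quantile normalization, 8 with centring on the median and 32 with array weights, and 0 to 6 with 1 array left out. The Islr difference passed in every fit but that without knockout replicate 3 (-2.39); its range with 1 array left out was -2.58 to -2.34, and it could not be tested without control replicate 2 or 3 because an outlier spot left 1 control value. The Il11ra1 difference turned to -0.0428 with quantile normalization and to -0.0786 with normexp and quantile normalization. Of the values for single genes or probes under the alternatives with a test, 287 kept direction and side of the threshold, 37 lost the call, 18 gained it and 2 reversed; 5 means over all probes of a gene, with no test, kept direction. Where no construction of the alternative shows it, the cause was not tested. No paired analysis was possible because the labels give no replicate numbers shared by the groups. The signal of knockout replicate 1 was not above background for 1 tested probe of Osmr and both of Il6, so their differences rest there on a value near the detection limit.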

Other observations

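A further 6 STAT3-responsive genes could not be tested because outlier spots left fewer than 2 usable values in a group, and their values with those spots kept are given here without a test. Saa3, which encodes an acute-phase serum amyloid protein, had log2 levels of 3.72, 3.16 and 3.51 in the controls and 1.06, 2.86 and 2.70 in the knockouts, with no overlap. Reg3b, which encodes an antimicrobial lectin, stood at 0.13, 0.52 and 1.99 against -2.41, 2.43 and -0.38, and Reg3g, its relative, at -0.42, 1.36 and 2.25 against -0.36, 2.18 and -0.16. For both Reg3 genes knockout replicate 2 was as high as the highest control or close to it, so the groups overlapped. The chemokine gene Cxcl1 had a difference of -2.77. The survival gene Mcl1 had one of 0.38, with every knockout above every control, and the immediate early gene Fos one of 0.29, with overlap.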
